A study of Mus musculus with 6 samples.

Results

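Low-UMI photoreceptors were taken from single-cell libraries of the mouse neurosensory retina at P3 (replicate 1) and P6. A UMI is a tag that marks 1 captured RNA molecule, and the number of UMIs of a cell is its depth. A barcode was kept if over 300 but under 4000 genes were detected and if mitochondrially encoded genes gave 15% of its UMIs or less. Members had at least 500 and under 2000 UMIs (the upper value of a UMI range is left out throughout) and at least 1 UMI of at least 2 of 5 genes, namely Pcdh15, Dnm3, Rpgrip1, Samd11 and Nt5e. There were 1942 members, 650 in P3 replicate 1 and 1292 at P6, of 3018 kept cells in this UMI range and of 25421 kept cells in both libraries. They made up 54.3% (exact binomial 95% interval 51.4 to 57.2) of the low-UMI cells and 5.37% of all kept cells in P3 replicate 1. At P6 they made up 71.0% (68.8 to 73.0) of the low-UMI cells and 9.70% of all kept cells.

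The series has 6 libraries of wild type mice, of which 2 are from P3 and the others from E14, E16, P0 and P6, with 59303 barcodes in all. No group carried an allele or a treatment. The study pooled several retinas of C57BL/6J mice per time point, digested them with papain and sorted DAPI-negative cells, so each library is 1 sample of a pool and single animals cannot be told apart. The totals of P3 replicate 1 and P6 were 58993215 and 63185129 UMIs, and no member barcode was shared between them. The lowest barcode held 500 UMIs in these libraries, in P0 and in E14, but 4566 UMIs in E16 and 3477 UMIs in P3 replicate 2. Members could therefore not occur in E16 or in P3 replicate 2. Age differs between the libraries of the members, and age and library cannot be told apart.

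Rods and cones leave the cell cycle as photoreceptor precursors, switch on the transcription factors Otx2 and Crx, and in rods Nrl and Nr2e3, before the outer segment forms. The outer segment is a modified cilium, joined to the cell body by the connecting cilium. All 5 genes of the rule have known roles in such cells or in the membrane. Rpgrip1 encodes a scaffold of the connecting cilium that anchors RPGR. Samd11 encodes a SAM-domain repressor of photoreceptors. Pcdh15 encodes a protocadherin of the Usher group, also found at the calyceal processes of photoreceptors. Dnm3 encodes a dynamin, a GTPase of membrane fission. Nt5e encodes CD73, a surface 5′-nucleotidase used to sort rods.

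The RefSeq promoter windows of the 2 most abundant of the 5 genes carry the core TAATCC, which is bound by OTX2- and CRX-type homeodomain proteins. Samd11 held 2 matches and Rpgrip1 1 match in the 300 bases around the RefSeq start (250 before, 50 after, GRCm38.p6), counting TAATCC and its reverse complement GGATTA. No other motif was searched, and 7.06% of 32851 such windows held at least 1 match. The first base of the matches lay 193 and 67 bases before the start of Samd11, at chr4:156255293-156255592 on the minus strand, and 28 bases before that of Rpgrip1, at chr14:52110653-52110952 on the plus strand. Capitals mark the matches, read 5′ to 3′ on the gene's strand.
Samd11: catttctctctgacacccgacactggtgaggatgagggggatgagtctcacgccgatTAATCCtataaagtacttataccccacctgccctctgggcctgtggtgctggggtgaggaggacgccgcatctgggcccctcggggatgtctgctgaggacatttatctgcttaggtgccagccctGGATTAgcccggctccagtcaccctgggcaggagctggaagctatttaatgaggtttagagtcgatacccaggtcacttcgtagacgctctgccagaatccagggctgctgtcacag
Rpgrip1: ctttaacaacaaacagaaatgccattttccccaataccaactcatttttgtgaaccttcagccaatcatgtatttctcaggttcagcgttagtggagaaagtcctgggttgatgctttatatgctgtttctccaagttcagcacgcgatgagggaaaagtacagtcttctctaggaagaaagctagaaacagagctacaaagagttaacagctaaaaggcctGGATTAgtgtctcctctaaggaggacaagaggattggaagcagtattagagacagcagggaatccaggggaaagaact
The windows of Pcdh15, Dnm3 and Nt5e did not hold these letters. In GENCODE on GRCm38, Pcdh15 spans 1550 kb of chromosome 10, from 73099342 to 74649737. Its searched window, from 73821617 to 73821916, lies inside this span, so the GENCODE start was not searched. The windows of Samd11 and Nt5e also lie inside their GENCODE spans, from 156246966 to 156255657 and from 88327197 to 88372092. Their GENCODE starts were not searched either, and both Samd11 matches lie within its span. Dnm3 spans 496 kb, Rpgrip1 52.8 kb, Nt5e 44.9 kb and Samd11 8.69 kb.

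The members carried photoreceptor RNA. A Nr2e3 UMI, from the gene of a rod nuclear receptor, was present in 91.7% of members in P3 replicate 1 and in 94.0% at P6. Among the other low-UMI cells it was present in 29.8% and 46.3%. Nrl, the rod-determining factor, had a UMI in 81.1% and 84.5% of members, and Crx, the shared photoreceptor factor, in 60.5% and 66.7%. Markers of other cells varied by list. Of the 8 ganglion cell genes 6 had no UMI in members with Nr2e3 in P3 replicate 1 and 5 at P6, and of the 6 pigment epithelium genes 5 had none in either library. The summed level of the 10 progenitor genes was 176 and 139 CPM (the usual unit in which the UMIs of a gene are scaled to a common total for every set) in members, against 1817 and 1089 in the other low-UMI cells. The 8 amacrine genes summed to 302 and 141 CPM, against 1466 and 859.5. The 8 Müller glia genes summed to 859 and 742 CPM, against 1041 and 1160.5, with Apoe alone at 745 and 615 in members and Aqp4 at 0. The 8 bipolar genes summed to 147 and 114 CPM, against 109 and 145, with Grm6 and Trpm1 at 0 in members, so that members were the higher set in P3 replicate 1. The 6 horizontal genes summed to 162 and 161 CPM, against 232 and 247. Microglia, vascular and red blood cell genes summed to between 1.01 and 17.2 CPM in members.

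The working name of these cells gives Pcdh15 and Dnm3, but Rpgrip1 and Samd11 carried the rule. Of the members 86.5% in P3 replicate 1 and 90.2% at P6 had a Rpgrip1 UMI, and 83.2% in each library had a Samd11 UMI. Pcdh15 was found in 43.7% and 46.7% of members, Dnm3 in 34.8% and 37.9%, and Nt5e in 19.1% and 26.3%. Rpgrip1 and Samd11 occurred together in 70.8% and 74.0% of members, while Pcdh15 and Dnm3 occurred together in 14.5% and 15.9%. The pair of Pcdh15 and Dnm3 was the whole basis of membership in 6 cells of P3 replicate 1 and 3 cells at P6. All 5 genes were present in 11 and 42 members.

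The level of each gene was taken as CPM over the summed UMIs of a set of cells. The members were chosen by UMIs of these 5 genes, so their levels are a description. They are compared with 2 sets of cells that carry a Nr2e3 UMI. Same-depth photoreceptors had 500 to 2000 UMIs and 0 or 1 of the 5 genes (163 cells in P3 replicate 1 and 245 at P6). Deeper photoreceptors had 2000 or more UMIs and fewer than 4000 genes (2730 and 5333 cells). In members with Nr2e3 (596 and 1215 cells), Rpgrip1 stood at 1456 CPM in P3 replicate 1 and 1743 at P6, and Samd11 at 1252 and 1216. Deeper photoreceptors had 593 and 757 for Rpgrip1 and 466 and 545 for Samd11. Pcdh15 stood at 452 and 507 in members and at 157 and 203 in deeper photoreceptors. Dnm3 stood at 306 and 379 against 147 and 175, and Nt5e at 144 and 221 against 56.4 and 88.0. Same-depth photoreceptors, which by the rule hold few of these UMIs, lay below the deeper cells for each of the 5 genes in both libraries.

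**Figure D1:**
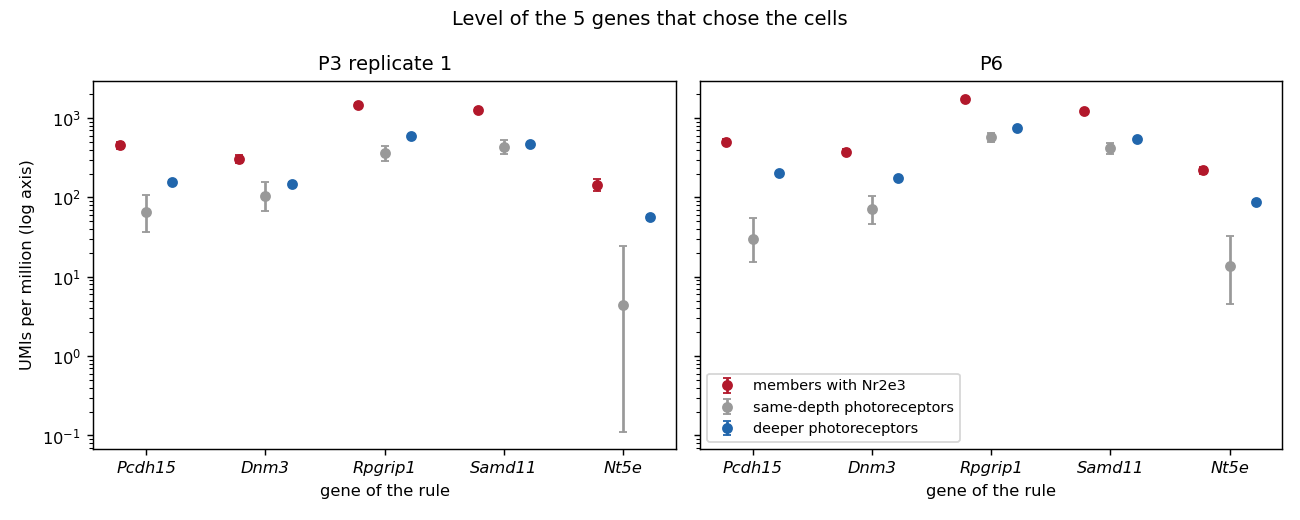
Level of the 5 genes of the rule in CPM (log axis), with exact Poisson 95% intervals that cover counting error only, in members with Nr2e3 (red), same-depth photoreceptors (grey) and deeper photoreceptors (blue) of P3 replicate 1 and P6. For each gene the members lie highest and the same-depth photoreceptors lowest, as for Pcdh15 at P6 with 507 and 30.3.

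Dnm3 was also found in cells without photoreceptor markers. Low-UMI cells with at least 2 amacrine genes and neither Nr2e3, Nrl nor Crx were used as cells that should lack photoreceptor RNA. Dnm3 had a UMI in 36.4% (27.4 to 46.3) of these 107 cells in P3 replicate 1 and in 30.6% (19.6 to 43.7) of 62 cells at P6. Pcdh15 had a UMI in 1.87% and 1.61% of them, Rpgrip1 in 7.48% and 4.84%, and Samd11 in 0 cells and 1.61%. Their median depth was 1352 and 1158.5 UMIs, against 1616 and 1645 UMIs in low-UMI cells with Nr2e3. The rule as a whole was met by 6 of 192 cells with amacrine or progenitor genes in P3 replicate 1 (3.13%, 1.16 to 6.68) and by 2 of 116 at P6 (1.72%, 0.209 to 6.09). It was met by 78.5% and 83.2% of low-UMI cells with Nr2e3. Dnm3 was not the only gene found outside photoreceptors. In cells of 2000 or more UMIs with amacrine or progenitor genes and neither Nr2e3, Nrl nor Crx, Rpgrip1 had a UMI in 17.9% and 16.3%. Pcdh15 had one in 9.15% and 19.3% of these deeper cells, Dnm3 in 10.6% and 7.78%, and Samd11 in 2.31% and 4.05%. Their median depth was 5184.5 and 5575 UMIs.

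The share of cells with 2 of the 5 genes changed little across the upper bound. Just below the upper bound, 62.5% of kept cells of 1900 to 2000 UMIs had 2 of the 5 genes in P3 replicate 1, and just above it 60.1% of those of 2000 to 2100 UMIs. At P6 these shares were 79.0% and 79.4%. At the lower end, 34.3% of 67 cells of 500 to 600 UMIs met the rule in P3 replicate 1 and 56.4% of 101 cells at P6. Cells with 1 of the 5 genes, just outside, carried a Nr2e3 UMI in 52.4% and 66.9% of cases, and cells with 2 of them in 88.3% and 91.6%. In P3 replicate 1 the step of 700 to 800 UMIs held 3 members among 40 cells. In the UMI range, 338 barcodes of P3 replicate 1 and 205 of P6 were left out for their mitochondrial share.

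Whether depth sets these cells apart was first asked by drawing 500 UMIs from every cell with Nr2e3. Shallow and deep cells then have the same number of UMIs in which to meet the rule, but the Nr2e3 gate still used all UMIs. Low-UMI photoreceptors then met it more often than deeper ones. The share was 32.8% (29.5 to 36.3) against 16.5% (15.1 to 18.0) in P3 replicate 1 and 40.8% (38.2 to 43.3) against 21.7% (20.6 to 22.8) at P6. Before thinning the shares were 78.5% against 70.8% and 83.2% against 78.8%. Each of the 5 genes had a UMI more often in the thinned low-UMI cells. Samd11 was found in 41.1% against 23.0% in P3 replicate 1, and Pcdh15 in 16.6% against 8.46%. The 5 genes led an earlier grouping of these low-UMI cells, so these shares rest on the values that chose the members, are a description with no test, and do not show that depth has no part.

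The thinned share fell without a step at 2000 UMIs. In P3 replicate 1 it was 51.0%, 37.2% and 31.6% in cells of 500 to 1000, 1000 to 1500 and 1500 to 2000 UMIs. Above the bound it was 26.4%, 14.1% and 8.39% in cells of 2000 to 3000, 3000 to 5000 and 5000 or more UMIs. At P6 the 6 values were 67.7%, 42.2%, 32.7%, 28.7%, 19.7% and 11.3%. A deep cell passes the Nr2e3 gate more easily, so the gate was also put on the thinned UMIs, a choice made after the data were seen. The shares were then 36.0% against 24.5% in P3 replicate 1 and 44.1% against 29.8% at P6. Against deeper cells of 2000 to 4000 UMIs alone they were 33.9% against 24.9% and 41.2% against 29.7%.

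**Figure D2:**
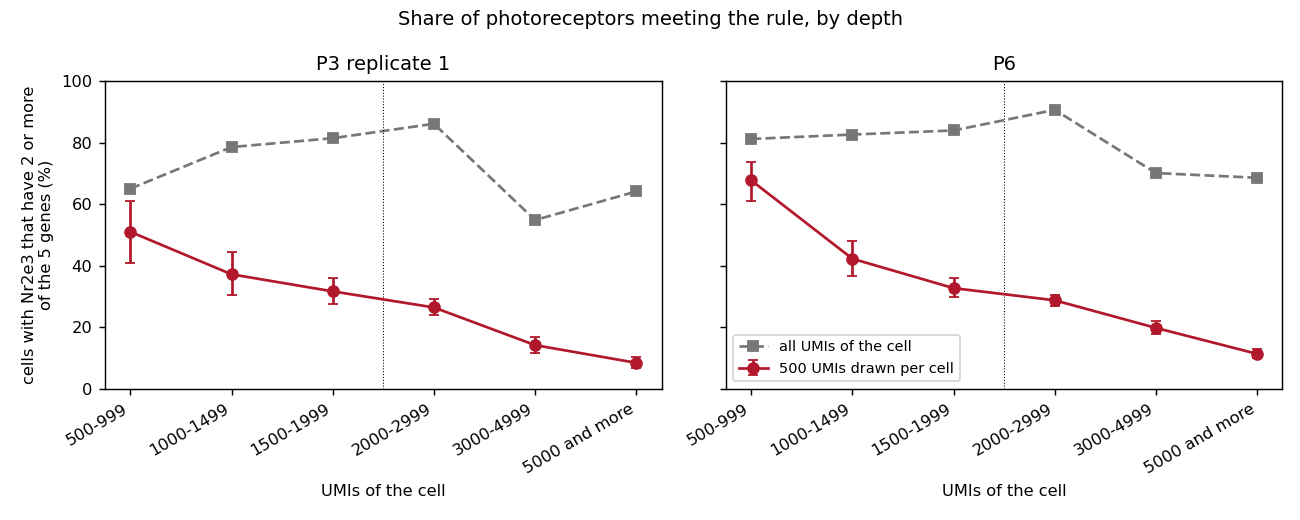
Share of cells with Nr2e3 that have 2 or more of the 5 genes (%), by the UMIs of the cell, with all UMIs (grey squares) and with 500 UMIs drawn per cell (red circles, exact binomial 95% intervals). The thinned share falls from 51.0% to 8.39% in P3 replicate 1 and from 67.7% to 11.3% at P6, and the dotted line marks the bound of 2000 UMIs.

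The make-up of the members' RNA differed from that of both reference sets. Mitochondrially encoded genes gave 3.00% of the UMIs of members with Nr2e3, the mean of the libraries, against 4.46% in same-depth and 4.88% in deeper photoreceptors. Ribosomal protein genes gave 8.87%, against 10.5% and 12.1%. Malat1, a long noncoding RNA kept in the nucleus, gave 7.88%, against 6.17% and 5.05%. Genes longer than 100 kb, with the 5 genes of the rule left out, gave 8.25%, against 7.38% and 7.84%. The differences from same-depth photoreceptors were -1.46 ± 0.21 points for mitochondrial, -1.66 ± 0.13 for ribosomal protein, 1.70 ± 0.13 for Malat1 and 0.86 ± 0.07 for long-gene UMIs (SD, n = 2 libraries). All 4 had the same sign in both libraries and exceeded the SD, and no test was run on them. The mitochondrial difference was -0.492 points with cells of at most 5% mitochondrial UMIs and 0.0810 points within 500 to 1000 UMIs. The long-gene difference from deeper cells was 0.401 points over all members and -0.0691 points in those of 1500 to 2000 UMIs.

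Within the members' UMI range, differences in ribosomal protein, Malat1 and long-gene UMIs from same-depth photoreceptors were widest at 500 to 1000 UMIs. The mitochondrial difference was not. Members of 500 to 1000 UMIs had 4.42% ribosomal protein UMIs in P3 replicate 1 and 4.17% at P6, against 8.73% and 7.06% in cells of that depth with 0 or 1 of the 5 genes. Malat1 took 12.5% and 11.8% of their UMIs, against 5.95% and 7.55%. Long genes took 13.1% and 12.7%, against 8.14% and 10.1%. At 1500 to 2000 UMIs the members had 9.52% and 9.33% ribosomal protein UMIs and 7.63% and 7.92% long-gene UMIs. The mitochondrial share of members did not follow depth in one direction. It was 4.05% and 4.29% at 500 to 1000 UMIs, 2.26% and 2.21% at 1000 to 1500 UMIs, and 3.29% and 2.91% at 1500 to 2000 UMIs. Cells of 2000 to 3000 UMIs that met the rule had 9.52% and 9.46% ribosomal protein UMIs, close to the members of 1500 to 2000 UMIs, but a higher mitochondrial share of 4.47% and 4.60%.

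**Figure D3:**
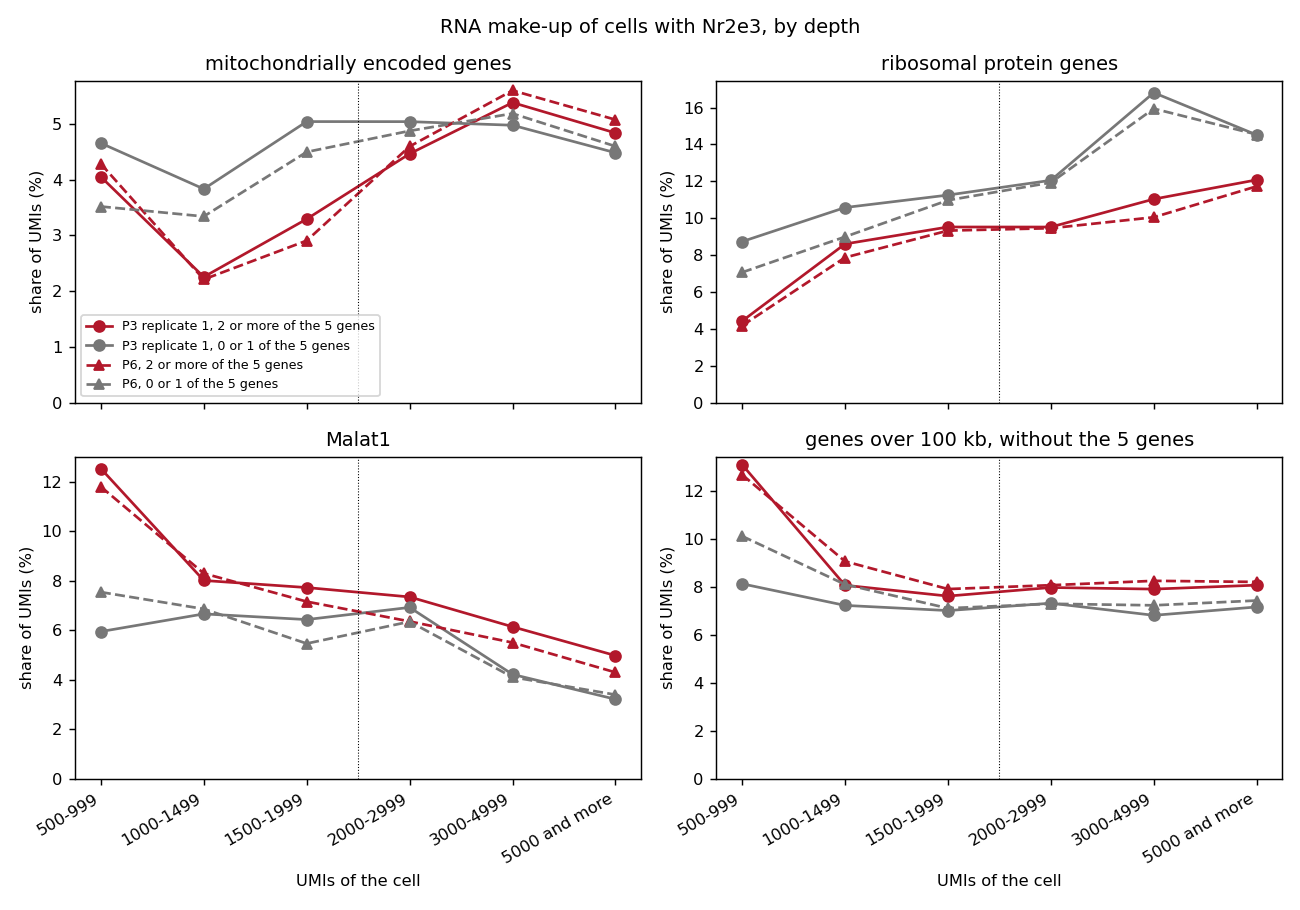
Share of UMIs (%) from mitochondrially encoded genes, ribosomal protein genes, Malat1 and genes over 100 kb (without the 5 genes), by the UMIs of the cell, in cells with Nr2e3 that have 2 or more (red) or 0 or 1 (grey) of the 5 genes, in P3 replicate 1 (circles) and P6 (triangles). The cells that meet the rule have fewer ribosomal protein UMIs in every bin, as at 500 to 1000 UMIs with 4.42% against 8.73% in P3 replicate 1, and the dotted line marks 2000 UMIs.

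Members with Nr2e3 were then compared with same-depth photoreceptors over all genes, to ask what sets them apart when depth is held. UMIs were summed per library and set, and edgeR was fitted with the library as a block. The 5 genes of the rule were left out of the fit. Nr2e3, the gate, was fitted and is among all genes tested, but is not counted in the gene lists. Of 7603 genes tested, 107 (1.41%) were higher and 219 (2.88%) were lower in members at an adjusted p under 0.05, 4.29% in either direction. Most genes of every photoreceptor list did not pass. Most ribosomal protein and mitochondrially encoded genes were lower. The 5 genes were picked because they led an earlier grouping of the same cells, so these p-values are no independent evidence for a type. The libraries are pools and the library was a block, so the p-values do not measure a spread between animals. They rest on how far the difference between the sets varied between 2 libraries. That spread was estimated on few degrees of freedom and moderated across genes.

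Among the photoreceptor transcription factors 3 of 10 were higher and none was lower, with a median log2 fold change of 0.26 beside -0.00 over all genes tested. Samd7, a partner of Samd11 in photoreceptor repression, had 401 in P3 replicate 1 and 529.7 at P6, against 227 and 334 CPM in same-depth photoreceptors (log2 fold change 0.66 ± 0.12 SE, edgeR adjusted p = 9.5e-06). The members lay above the same-depth cells in both libraries. Casz1, a zinc finger factor of rods, and Pias3, a regulator of rod genes, were also higher, by log2 values of 0.41 ± 0.10 and 0.53 ± 0.16. Nrl did not pass (log2 fold change 0.16 ± 0.07 SE, edgeR adjusted p = 0.22). Of 15 rod phototransduction genes 1 was higher and 1 lower. Pde6b, a catalytic subunit of the rod phosphodiesterase, had 369 in P3 replicate 1 and 515 at P6, against 201 and 287 CPM (log2 fold change 0.80 ± 0.13 SE, edgeR adjusted p = 1.2e-07). Gngt1, the rod transducin gamma subunit, was lower (log2 fold change -0.32 ± 0.07) but higher with a Crx gate (0.31).

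Of the outer segment, cilium and synapse genes that passed, most were higher. Of 15 outer segment and disc genes 5 were higher and 1 was lower. Rp1, a microtubule protein of the outer segment, had 1082 in P3 replicate 1 and 1637 at P6, against 593 and 1175 CPM (log2 fold change 0.55 ± 0.08 SE, edgeR adjusted p = 4.4e-10). Prom1, which encodes the disc protein prominin-1, was higher by 0.61 ± 0.13, as were Impg2, Tulp1 and Crb1, while Abca4, a lipid transporter of discs, was lower (-0.68 ± 0.22). Of 18 connecting cilium genes 3 were higher and none lower, namely Cc2d2a, Cep290 and Rpgr. Rpgr, whose product binds RPGRIP1, had 175 in P3 replicate 1 and 188 at P6, against 78.5 and 102 CPM (log2 fold change 0.92 ± 0.20 SE, edgeR adjusted p = 3.2e-04). Of 15 ribbon synapse genes 4 were higher and none lower. They were Dmd (dystrophin), Unc13b (a vesicle priming factor), Stx3 (the syntaxin of ribbon synapses) and Snap25, with log2 fold changes of 0.75 ± 0.09, 0.77 ± 0.24, 0.56 ± 0.15 and 0.37 ± 0.10. Of 11 dynamin and endocytosis genes, the group of Dnm3, 1 was higher, Itsn2, an endocytic scaffold. It had 122 UMIs in members and 8 in same-depth cells. So few could not pass the filter without the sums of members, so this call is a description. None of the 4 tested Usher and calyceal genes, the group of Pcdh15, passed.

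The lower calls held most ribosomal protein and mitochondrially encoded genes and some markers of other cell types. Of 79 ribosomal protein genes 60 were lower and none was higher, with a median log2 fold change of -0.30. Of 13 mitochondrially encoded genes 11 were lower. Of 5 tested progenitor genes 3 were lower (Dapl1, Hes5 and the cyclin Ccnd1), and of 4 amacrine genes 2 were lower. Pax6, a factor of amacrine cells and progenitors, had 55.6 in P3 replicate 1 and 20.5 at P6, against 183 and 108 CPM (log2 fold change -2.08 ± 0.24 SE, edgeR adjusted p = 8.3e-15), and Tfap2b, an amacrine factor, was lower (log2 fold change -1.38 ± 0.22). The precursor factor Sox4, the bipolar gene Pcp2, Apoe, the vascular receptor Kdr and the cone gene Gngt2 were lower as well. The summed level of the 8 amacrine genes was 267 and 142 CPM in members with Nr2e3 against 571 and 312 in same-depth photoreceptors, and its part in the other differences was not tested. The nuclear RNAs moved both ways. Malat1 (0.29 ± 0.03) and Kcnq1ot1 (0.40 ± 0.12) were higher, while Meg3 (-1.70 ± 0.14), Miat (-1.47 ± 0.33) and Rian (-2.58 ± 0.48) were lower. Of 11 immediate early and heat shock genes 1, Jun, was higher, and none of 10 apoptosis genes passed.

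Many of the largest differences lay in weakly expressed genes. The 12 higher genes with the largest fold and at least 100 UMIs were Zfp426, Itsn2, Frmpd2, Sugp2, Dcun1d3, AU041133, Gal3st4, Icmt, Zdhhc2, Tmx2, Galnt7 and Cc2d2a, with log2 fold changes from 1.19 to 1.69. They rested on 6 to 20 UMIs in the same-depth cells. The sums of members hold more UMIs, so a gene could pass the filter through them alone and could then only be called higher. This list is therefore a description. The 12 lower genes were Pax6, Meg3, Miat, Tfap2b, Ccnd1, Psme1, Mex3a, Pcp2, Hes5, Rasgef1b, Hist1h2ap and Lcmt1, from -2.08 to -0.96. The counts depended on the settings. With at most 5% mitochondrial UMIs per cell, 10 genes were higher and 19 lower. Of the lists, 5 of 79 ribosomal protein genes, 3 of 12 mitochondrially encoded genes, 0 of 5 progenitor genes and 0 of 3 amacrine genes were then lower. Of 10 transcription factors 1 was then higher (Samd7), of 14 rod phototransduction genes 1 (Pde6b), of 15 outer segment genes 2 (Rp1 and Prom1), of 17 cilium genes 1 (Cep290) and of 14 ribbon synapse genes 1 (Dmd). Over all genes, 2 were higher and 12 lower without the library block, and 8 and 56 by DESeq2. With P0 added as another library, a choice made after the data were seen, they were 102 and 152.

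Against all other kept cells of the same UMI range, most transcription factor, rod and outer segment genes were higher in members and most progenitor and amacrine genes lower. The rule chose mostly cells with Nr2e3, 91.7% and 94.0% of members against 29.8% and 46.3% of the other cells. The sets therefore differ in cell types by choice, and these p-values are no independent evidence for a type. Of 8929 genes tested, 900 (10.1%) were higher and 1337 (15%) lower in members by edgeR, 25.1% in either direction. Of 11 photoreceptor transcription factors 10 were higher, and Rorb, which progenitors and other neurons also express, was lower. Of 15 rod phototransduction genes 14 were higher, and of 15 outer segment genes 13. Pde6b had 348 in P3 replicate 1 and 496 at P6, against 69.7 and 155 CPM (log2 fold change 1.90 ± 0.16 SE, edgeR adjusted p = 3.5e-32). Of 4 Usher and calyceal genes 1 was higher and 1, Adgrv1, was lower. The 12 higher genes with the largest fold included Gal3st4, Frmpd2, Cdh13, Pde6b, Zdhhc2, Llgl2, Icmt, Cpt1a, Samd7, Rp1 and Dcun1d3. The 12 lower genes, among them Adarb2, Gria4, Snhg11, Ebf1, Grik2, Gria3, Gria2, Rmst, Hist1h1b, Spc25 and Ptprk, include glutamate receptor subunits of inner neurons and genes of dividing cells. Gria2 had 27.3 in P3 replicate 1 and 5.64 at P6, against 372 and 230.5 CPM (log2 fold change -4.42 ± 0.21 SE, edgeR adjusted p = 8.9e-90). All 8 tested progenitor genes and 6 of 7 amacrine genes were lower, and Slc6a9, a glycine transporter, was higher.

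The comparison with deeper photoreceptors asks which genes differ between members with Nr2e3 and cells above the depth bound. Of 12583 genes tested, 1784 (14.2%) were higher and 2334 (18.5%) lower in members by edgeR, 32.7% in either direction. The deeper sums hold more UMIs than the same-depth ones, so the counts of the comparisons cannot be set against each other. A gene seen only in the deeper sums could pass the filter and could then only be called lower. Of 10 photoreceptor transcription factors 9 were higher, by a median of 0.57, and Rorb was lower. Samd7 had 401 in P3 replicate 1 and 529.7 at P6, against 152 and 268 CPM (log2 fold change 1.13 ± 0.08 SE, edgeR adjusted p = 3.1e-46). Nrl was higher by 0.82 ± 0.07, Crx by 0.67 ± 0.07, Neurod1 by 0.61 ± 0.07 and Prdm1, which holds photoreceptor fate over bipolar fate, by 0.54 ± 0.08. Otx2 was higher by 0.22 ± 0.07, but lower against deeper cells of 2000 to 4000 UMIs (-0.055) and with a Crx gate (-0.14). Of 20 rod phototransduction genes 12 were higher and 2 lower, of 15 outer segment genes 13 and 1, of 19 connecting cilium genes 12 and 1, and of 18 ribbon synapse genes 14 and none. Sag (arrestin), Pde6b, Rp1, Prom1, Cep290, Snap25 and Whrn were higher by between 0.71 and 0.89. With the Nr2e3 gate on 500 drawn UMIs, chosen after the data were seen, 6 of 10 transcription factors were higher and 1 lower. Of 18 rod phototransduction genes 4 were then higher and 2 lower, and of 15 outer segment genes 8 and none. Of 19 connecting cilium genes 4 were higher and 1 lower, and of 18 ribbon synapse genes 7 and none.

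The deeper cells also carried RNA of dividing and other cells. All 10 progenitor genes and 12 of 14 precursor genes were lower in members. Ccnd1 had 63.3 in P3 replicate 1 and 32.9 at P6, against 862 and 567 CPM (log2 fold change -3.98 ± 0.11 SE, edgeR adjusted p = 1.2e-261). The summed level of the 10 progenitor genes was 2100 and 1543 CPM in deeper photoreceptors, 397 and 254 in same-depth photoreceptors and 178 and 123 in members with Nr2e3, and its part in the higher photoreceptor levels of members was not tested. The 12 lowest genes, Mir99ahg, Tril, Entpd2, Dipk1c, Lypd6, Cyp26a1, Cldn5, S100a16, Pkib, Enpp2, Pde6c and Zfp820, had no UMI in members with Nr2e3. These genes passed the filter through the deeper sums alone, so they could only be called lower and are a description. Against a floor of 3 UMIs over these members they were at least 5.26-fold (Zfp820) to at least 28.4-fold (Mir99ahg) lower. The 12 higher genes with the largest fold, Cfap70, Rnf207, Plcd3, Ptges, Stag3, Mesp1, Arid3c, Ache, Cyp46a1, Hrk, Rps6kl1 and Casc1, had 19 to 106 UMIs in members with Nr2e3.

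With deeper cells limited to 2000 to 4000 UMIs, which lie next to the members in depth, 353 genes were higher and 496 lower. The photoreceptor lists then held fewer calls. Of 10 transcription factors 3 were higher, of 18 rod phototransduction genes 5, of 15 outer segment genes 9, of 19 connecting cilium genes 1 and of 18 ribbon synapse genes 5. Of 83 ribosomal protein genes 71 were lower with this limit and 75 without it, and all 13 mitochondrially encoded genes were lower in both fits. Same-depth photoreceptors, compared with deeper photoreceptors in the same way, had 266 higher genes (2.14%) and 611 lower (4.91%) of 12439 tested, 7.05% in either direction. Both comparisons share the deeper cells, and the sums of members are the larger ones.

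**Figure D4:**
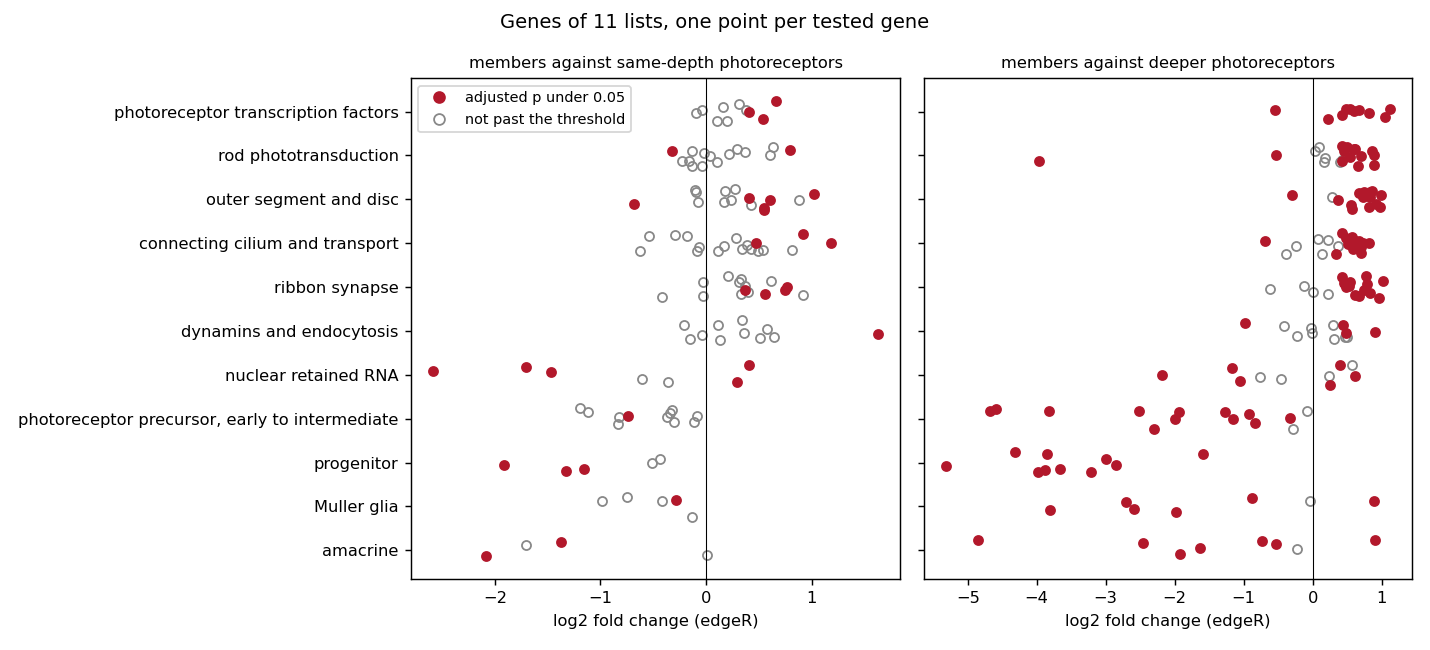
Log2 fold change of every tested gene in 11 lists (1 point a gene, Nr2e3 left out), members against same-depth photoreceptors (left) and against deeper photoreceptors (right), with filled points at an edgeR adjusted p under 0.05. Called transcription factor, outer segment and ribbon synapse genes lie mostly to the right of 0 and called precursor, progenitor and amacrine genes mostly to the left, and Samd7 lies at 0.66 and 1.13.

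Short and long genes differed in how often they were called against same-depth cells. Of 1856 tested genes that span up to 10 kb, 12 were higher and 143 lower (7.70%), and the median log2 fold change was -0.17. Of 957 genes over 100 kb, 35 (3.66%) were higher and 20 lower, with a median of 0.11. Against deeper cells the medians were -0.01 for the shortest and -0.10 for the longest genes. The shortest class includes the ribosomal protein genes.

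Members with Nr2e3 were last compared among themselves, those of 500 to 1000 UMIs (65 and 181 cells) with those of 1500 to 2000 UMIs (381 and 768 cells), a comparison added after the data were seen. A cell with fewer UMIs must hold the rule genes at a higher share to be a member, so the 2 sets were chosen at different levels of those genes. Of 6288 genes tested, 564 (8.97%) were higher and 684 (10.9%) lower in the shallower members by edgeR, 19.8% in either direction. Calls among long genes were mostly higher and those among short genes mostly lower. Of 808 genes over 100 kb 212 (26.2%) were higher and 5 lower, and of 1527 genes up to 10 kb 30 were higher and 435 (28.5%) lower. The median log2 fold changes were 0.60 and -0.73.

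**Figure D5:**
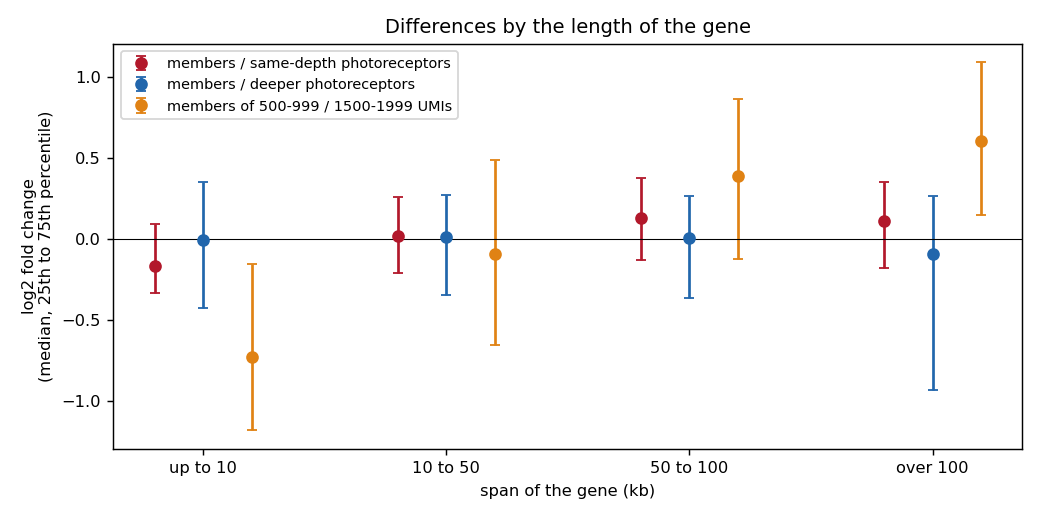
Median log2 fold change (points) with the 25th and 75th percentiles over genes (bars), by the span of the gene in kb, for members against same-depth photoreceptors (red), against deeper photoreceptors (blue) and for members of 500 to 1000 against 1500 to 2000 UMIs (orange). The last comparison climbs, from -0.73 up to 10 kb to 0.60 over 100 kb.

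Several nuclear RNAs and long photoreceptor genes were higher in the shallowest members. Kcnq1ot1, a nuclear noncoding RNA, had 1336 in P3 replicate 1 and 1522 at P6, against 332 and 375 CPM in members of 1500 to 2000 UMIs (log2 fold change 1.91 ± 0.16 SE, edgeR adjusted p = 5.2e-14). Malat1 was higher by 0.59 ± 0.16 and Meg3 by 1.46 ± 0.28. Whrn, Unc13b, Cep290, Dmd, Prom1 and Rp1 were higher by 1.67 ± 0.51, 1.61 ± 0.28, 1.07 ± 0.17, 1.25 ± 0.14, 0.84 ± 0.18 and 0.68 ± 0.14. The 12 higher genes with the largest fold were Nfat5, Kcnq1ot1, Dgke, Tet2, Dop1a, Map2, Srcap, Agtpbp1, Cerkl, Prpf39, Nf1 and Mpp4. Cerkl and Mpp4 act in photoreceptors, while Tet2, Srcap and Nfat5 encode nuclear proteins.

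Several other photoreceptor genes were lower in the shallowest members. Gngt2, a cone transducin gamma subunit, had 2233 in P3 replicate 1 and 1125 at P6, against 6288 and 4499.7 CPM (log2 fold change -1.89 ± 0.15 SE, edgeR adjusted p = 3.9e-14). Pdc (phosducin), Unc119, Rom1, Pde6g and Gngt1 were lower, with log2 fold changes of -0.78 ± 0.14, -1.16 ± 0.17, -0.78 ± 0.15, -0.86 ± 0.19 and -0.83 ± 0.17. Among the transcription factors, Neurod1, Nrl and Otx2 were lower, at -0.95 ± 0.14, -0.70 ± 0.15 and -0.58 ± 0.15, while Samd7 and Casz1 were higher. Of 14 rod phototransduction genes 3 were higher (Sag, Grk1 and Gucy2e) and 3 lower. Of 79 ribosomal protein genes 77 were lower, and 5 of 13 mitochondrially encoded genes were higher with none lower. Of 76 nuclear-encoded subunits of oxidative phosphorylation, a group named after its values were seen, 65 were lower and 1 higher. The 12 lower genes with the largest fold, among them Pcp2, Hax1, Tor1a, Tmem223, Mgat4b, Erich1, Rce1, Oard1, Tmem11, Fmc1 and Mrpl39, had 0 to 3 UMIs in the shallower members and 100 or more in the others, and their folds are not given. They reached the 100 UMIs needed to be named through the deeper members alone, so this list is a description. None of 6 apoptosis genes was higher, and Bax was lower.

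P0, a library the rule did not use, held 272 kept cells of 500 to 2000 UMIs, of which 64 (23.5%, 18.6 to 29.0) had 2 of the 5 genes. A Nr2e3 UMI was present in 67.2% of these cells and in 13.0% of the other low-UMI cells. Rpgrip1 and Samd11 occurred together in 67.2% of them, near the shares of the other libraries. After drawing 500 UMIs, 25.7% (16.0 to 37.6) of the 70 low-UMI cells with Nr2e3 met the rule, against 10.3% (7.80 to 13.3) of 504 deeper ones. The make-up differed in the same directions as in the members. Ribosomal protein genes gave 9.28% of UMIs in cells with Nr2e3 that met the rule, against 13.0% in the 27 that did not and 15.1% in deeper cells. Malat1 gave 10.5%, against 6.64% and 5.41%. Long genes gave 8.33%, against 6.12% and 7.04%. In P3 replicate 2, where every cell had at least 3477 UMIs, 8.05% (6.57 to 9.75) of 1192 cells with Nr2e3 met the rule at 500 drawn UMIs, below the 16.5% of deeper cells in P3 replicate 1. Their median depth was 6149 UMIs against 3449, and that library was counted on another gene annotation. Its cells with Nr2e3 that met the rule on all their UMIs had more ribosomal protein UMIs than those that did not. The shares were 18.3% against 17.6% at 3000 to 5000 UMIs and 22.1% against 19.3% at 5000 or more. Mitochondrial shares were also higher (5.35% against 4.76% and 4.89% against 4.27%). Long genes gave 6.40% against 6.50% and 6.39% against 6.47%, and Malat1 3.75% against 3.09% and 2.57% against 2.57%.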

How the data were processed

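Single-cell RNA was measured in 6 libraries of pooled mouse retinas. The deposited counts are UMI counts per gene and barcode, made by the authors with Cell Ranger on mm10 (version 6.1.2 per the file headers of 4 libraries, not given in the sources used here for the other 2, which use another annotation). Members and gene lists were chosen with earlier results of these data known, the ribosomal, mitochondrial and oxidative phosphorylation lists by name pattern after values were seen. A barcode was kept where it had over 300 but under 4000 genes and a mitochondrial share of 15% or less. No doublet caller was run here; the study sorted on scatter.

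UMIs were summed per library and cell set and fitted in edgeR 4.0.16 (R 4.3.3; TMM, filterByExpr, quasi-likelihood test, Benjamini-Hochberg, two-sided) with the library as block. Both sums of a pair come from 1 library, and their deviations correlated at 0.252 (same depth), 0.358 (UMI range), 0.319 (deeper), 0.176 (same-depth against deeper) and 0.116 (within members). With 2 pooled libraries the spread is estimated on few degrees of freedom, moderated across genes, and cells were not replicates. Named genes are list genes and the 12 per direction with the largest fold past an adjusted p of 0.05, moved alike in both libraries, with at least 100 UMIs and no mitochondrial or predicted gene. A few genes that this names are left out of the text. Thinning drew 500 UMIs per cell without replacement (numpy 2.4.6). Exact binomial and Poisson 95% intervals (scipy 1.17.1) and the floor of 3 counts cover counting error only. On simulated data the edgeR fit recovered 118 of 189 changed genes at the same depth, with 5 false calls. Recovery was 162 of 188 in the UMI range and 119 of 199 against deeper cells, with 7 and 2 false calls. It was 73 of 195 for same-depth against deeper and 67 of 180 within members, with 2 false calls in each. A gene that did not pass can therefore still differ. Alternatives were DESeq2 1.42.0, no filter, no block and other bounds, gates and limits. Gene spans came from the GENCODE annotation on GRCm38.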

Additional observations from a re-analysis of the deposited data

Results flagged for a closer look

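The mitochondrial share of members against same-depth photoreceptors went opposite ways in the libraries among cells of 500 to 1000 UMIs. It was 0.766 points higher in members at P6 and -0.604 points (lower) in P3 replicate 1, on 181 against 42 cells and 65 against 35 cells. The difference between the libraries was not tested.

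E14, which the comparisons do not use, held 31 cells that met the rule among 1269 kept cells of 500 to 2000 UMIs. This is 2.44% (exact binomial 95% interval 1.67 to 3.45), above the share of 0.236% that a count of 0 allows (3 counts). Rpgrip1 had a UMI in 29 of these cells and Samd11 in 24. None had a Nr2e3 UMI, and neither did any other kept cell of E14. Crx had a UMI in 15 of the 31 cells (48.4%), against 4.52% of the other 1238 low-UMI cells.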

How the results depend on the processing

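The cause of the changes below was not tested. With DESeq2 the numbers of higher and lower genes were 8 and 56 (main 107 and 219) against same-depth photoreceptors, 182 and 556 (900 and 1337) against the UMI range, 446 and 909 (1784 and 2334) against deeper photoreceptors, 77 and 145 (266 and 611) for same-depth against deeper, and 99 and 203 (564 and 684) within members. Without the library (replicate) block they were 2 and 12 against same-depth photoreceptors, 697 and 1373 against deeper ones, 37 and 146 for same-depth against deeper, and 495 higher in the UMI range. At most 5% mitochondrial UMIs gave 10 and 19 at the same depth, 441 and 662 in the range, and 129 and 237 within members. No filter gave 113 lower at the same depth and 251 higher within members. Shallow cells of 1000 to 2000 UMIs gave 65 higher at the same depth. At least 3 of 5 genes gave 489 and 817 in the range. A Nr2e3 UMI among 500 thinned UMIs gave 63 higher at the same depth, 645 and 993 against deeper, and 92 and 158 for same-depth against deeper. Deeper cells of 2000 to 4000 UMIs gave 353 and 496 against deeper and 64 and 63 for same-depth against deeper.

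The thinned shares of low-UMI and deeper cells were 59.2% and 38.2% in P3 replicate 1 and 63.5% and 45.3% at P6 with 1000 UMIs, and 7.38%, 3.77%, 14.0% and 4.43% with 3 of 5 genes. Deeper cells had 10.8% and 17.7% with a Crx gate and 24.9% and 29.7% at 2000 to 4000 UMIs. With the thinned gate deeper cells had 24.5% and 29.8%, and low-UMI cells at P6 44.1%. Members were 27.2% and 43.0% of low-UMI cells with 3 of 5 genes and 63.5% and 76.5% with at most 5% mitochondrial UMIs.

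Member minus same-depth make-up, in points: at 500 to 1000 UMIs mitochondrial 0.0810 (reversed), ribosomal -3.60, Malat1 5.43 and long genes 3.77; at 1000 to 1500 UMIs Malat1 1.40; at 1500 to 2000 UMIs Malat1 1.50 and long genes 0.704; at most 5% mitochondrial UMIs -0.492, -1.83, 1.48 and 1.01. Long genes gave 1.98 at 50 kb and 0.277 at 200 kb. Member minus deeper make-up: at 500 to 1000 UMIs -0.711, -7.76, 7.12 and 5.07 in the same order; at 1000 to 1500 UMIs -2.65, -3.82, 3.11 and 0.736; at 1500 to 2000 UMIs ribosomal -2.63, Malat1 2.39 and long genes -0.0691 (reversed). Malat1 was 3.22 with at most 5% mitochondrial UMIs, and long genes 1.10 at 50 kb and 0.189 at 200 kb. Leaving out each library gave, against same-depth, -1.61 to -1.31, -1.75 to -1.57, 1.61 to 1.79 and 0.812 to 0.912, and against deeper -2.10 to -1.67, -3.35 to -3.01, 2.79 to 2.85 and 0.303 to 0.499.

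Single genes reversed in few settings. At the same depth these were Tmx2 (-0.10) and Rasgef1b (0.061) with 3 of 5 genes, Rasgef1b (0.0025) with 5% mitochondrial UMIs and Gngt1 (0.31) with a Crx gate. Against deeper cells they were Abca4 (-0.47 to 0.022 on leaving out each library), Gngt1 (-0.0261), Opn1sw (0.42) and Otx2 (-0.055) at 2000 to 4000 UMIs, Opn1sw (0.15) with 5% mitochondrial UMIs and Otx2 (-0.14) with a Crx gate. Of the other values of single genes, 1124 counted as the same, 315 lost the threshold and 173 moved. Where a p-value exists, the same means that direction and side of the threshold were kept. On leaving out a library there is no p-value, and the same means less than the SE from the main value. All 173 moved values are leave-out values that shifted by the SE or more. These totals pool the comparisons. At the same depth, 46 values lost the threshold without the library block and 4 kept it. With at most 5% mitochondrial UMIs 41 lost it and 7 kept it, and with no filter 8 lost it and 42 kept it. By DESeq2 6 lost it and 7 kept it, and genes without a DESeq2 adjusted p were not counted. The thinned-gate and 2000 to 4000 UMI shares and the P0 fits were chosen after seeing the data. P3 replicate 2 could not be added, since it holds 0 cells of 500 to 2000 UMIs. Leaving out a library leaves no residual degrees of freedom, so no counts are given. The same-depth set is small, 163 and 245 cells, since most cells with Nr2e3 at this depth are members, and this limits its precision.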
